A study of Homo sapiens with 18 samples.

Results

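The comparison is between C4-2B cells given VIC-1911 together with olaparib for 7 days and C4-2B cells given the DMSO vehicle for the same time. It takes 6 of the 18 RNA-seq libraries of the series, 3 in each group, and every gene with at least 10 counts in at least 3 of those 6 libraries, which left 14034 of the 21276 genes in the 7-day count table. C4-2B is a castration-resistant prostate cancer (PCa) line derived from LNCaP, and no gene was altered in any group. The combination held 0.1 µM VIC-1911, an inhibitor of the mitotic kinase AURKA, and 1 µM olaparib, an inhibitor of PARP1 and PARP2. The same doses given alone for 7 days, in 3 libraries each, serve below to show where the combination differed from each drug. The model is a single cell line, and the labels do not say that the 3 libraries of a group came from separate cultures, so the p-values measure the spread between these libraries, which may be technical.

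AURKA drives centrosome maturation and spindle assembly, and cells in which it is inhibited are delayed or fail in mitosis. PARP inhibition traps PARP on DNA and turns single-strand breaks into replication-associated breaks that homologous recombination has to repair. DNA breaks can stabilise p53, whose targets include the cell cycle inhibitor CDKN1A and the p53 ubiquitin ligase MDM2, whereas a shortage of amino acids or misfolded protein acts through the transcription factor ATF4 on amino acid synthesis and transport.

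The vehicle libraries held 6911220 to 17538796 counts and the combination libraries 11431653 to 17578841, and TMM factors ran from 0.978 to 1.02. The common biological coefficient of variation was 5.15% in the 6 libraries. The vehicle and VIC-1911 libraries carry one unbroken run of library numbers and the olaparib and combination libraries another, so the combination and this run cannot be told apart in a comparison with vehicle or with VIC-1911, while the comparison with olaparib lies within a run. The defining markers of prostate luminal cells were present in every library, with summed levels of 4450 to 4480 FPKM (fragments per kilobase of gene, scaled to library size, so that levels of genes can be compared) in vehicle and 2940 to 3090 FPKM in the combination. KRT5, NEUROD1, DCN, CDH5 and CD3E, markers of basal, neuroendocrine, fibroblast, endothelial and T cells, were listed at 0 in all 12 libraries. The full basal, fibroblast, neuroendocrine, endothelial and leukocyte lists summed to at most 2.89, 2.63, 1.72, 0.743 and 0.315 FPKM in any vehicle or combination library.

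A gene is called changed below where edgeR's quasi-likelihood test gave a Benjamini-Hochberg adjusted p under 0.05 over all tested genes and the fold change was at least 2. By this rule 594 genes rose in the combination, 4.23% of those tested, and 529 fell, 3.77%. Without the limit on fold, 3873 genes (27.6%) were higher and 3819 (27.2%) lower at an adjusted p under 0.05, and the median log2 fold change of all genes was 0.0046. Calls for higher levels were most frequent among genes of low abundance, 11.3% of the lowest quartile of genes by mean level against 0.969% of the highest quartile, while lower calls took 7.47% and 3.05% of the same quartiles. A gene that is nearly silent in one group could be tested only if the other group held enough counts, so the low-level genes were in part selected for a difference.

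**Figure D1:**
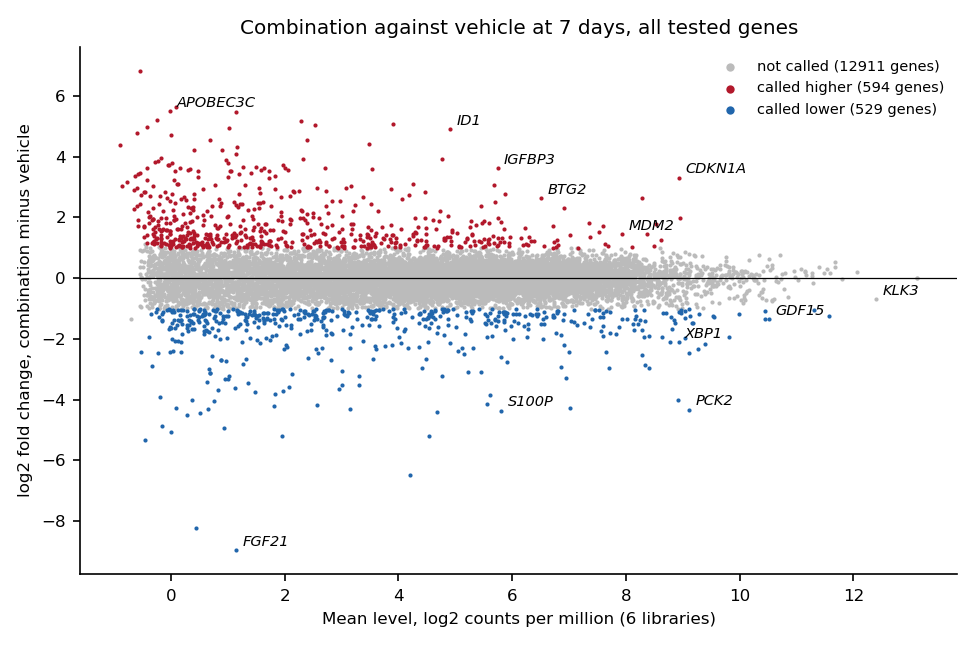
Log2 fold change, combination minus vehicle, of each tested gene (y axis) against its mean level over the 6 libraries as log2 CPM (counts scaled to library size, x axis), with genes called higher in red, called lower in blue and the rest in grey. The 594 red points crowd at low levels, and ID1, IGFBP3 and CDKN1A stand out at higher ones, while PCK2, S100P and FGF21 lie far below 0. FGF21 had no counts in the combination, so its drawn fold change depends on the prior count.

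The largest amount of transcript gained by a p53 target came from CDKN1A, which encodes the CDK inhibitor p21 (GRCh38 chromosome 6, 36676463 to 36687332). Its level was 28.5, 24.3 and 25.1 FPKM in the vehicle libraries and 260.1, 258 and 257 FPKM in the combination libraries. The groups were far apart, by 9.96-fold in FPKM, with a log2 fold change of 3.31 ± 0.06 (SE, edgeR's quasi-likelihood test, adjusted p 5.92e-23). Cells given VIC-1911 alone held 96.1 ± 3.46 FPKM (SD, n = 3) and cells given olaparib alone 216 ± 5.36 FPKM (SD, n = 3), so the 4 groups stood in the order vehicle, VIC-1911, olaparib, combination without overlap. The step from olaparib to the combination was 0.27 ± 0.04 on the log2 scale (adjusted p 9.98e-05), under 2-fold. Of 7 CDK inhibitor genes CDKN1A alone was called, and CDKN1B and CDKN2C had log2 differences of -0.72 and -0.98.

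CDKN1A was 1 of 26 members of a p53 target list of 48 tested genes that rose, against 4 that fell. With any fold allowed, 37 members passed the test as higher and 4 as lower, and the list had a median of 1.16 on the log2 scale. Feedback regulators were among those that rose. MDM2 measured 13.8, 12.6 and 13.2 FPKM in vehicle and 35.0, 37.4 and 35.8 FPKM in the combination, a log2 difference of 1.45 ± 0.05 (adjusted p 4.69e-17) with no overlap. The phosphatase gene PPM1D, another negative regulator of p53, rose by 1.32 ± 0.09 on the log2 scale. Growth arrest and RNA turnover were represented by BTG2, an antiproliferative factor that promotes deadenylation, and ZMAT3, an RNA-binding protein. BTG2 measured 7.79, 6.52 and 6.31 FPKM in vehicle and 42.7, 44.4 and 44.1 FPKM in the combination, every combination library being above every vehicle one. ZMAT3 went from 3.54, 3.06 and 3.38 FPKM to 15.8, 16.9 and 17.2 FPKM, again without overlap.

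Death genes in that list moved in both directions. BAX, which permeabilises the mitochondrial outer membrane, measured 14.6, 12.7 and 14.8 FPKM in vehicle and 54.7, 46.5 and 49.5 FPKM in the combination (log2 difference 1.86 ± 0.08, adjusted p 8.7e-16). BBC3, the BH3-only protein PUMA, rose by 1.24 ± 0.08 and the death receptor FAS by 2.22 ± 0.16 on the log2 scale. FAS overlaps ACTA2, which is itself in the list and rose, and the strand setting of the counting is not given in the sources used here, so their reads may be shared. PMAIP1, the BH3-only protein NOXA, fell from 4.96 ± 0.942 to 2.06 ± 0.136 FPKM (SD, n = 3 each). In a wider list of apoptosis genes, 3 of 26 rose (BAX, BBC3 and FAS) and PMAIP1 alone fell, all of them also in the p53 list. These are 11.5% and 3.85% of the list, beside 4.23% and 3.77% of all tested genes. At any fold 14 members passed as higher and 3 as lower, with a median of 0.256. The anti-apoptotic BCL2L1 had a log2 difference of 0.64, under 2-fold.

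The 4 members of the p53 list that fell were GDF15, SESN2, PMAIP1 and TNFRSF10C. GDF15, a secreted stress cytokine that both p53 and ATF4 can induce, measured 1337, 1251 and 1430.0 FPKM in vehicle and 563, 522 and 507 FPKM in the combination. The groups did not overlap, and the log2 difference was -1.34 ± 0.05 (adjusted p 2.45e-16). SESN2, a leucine sensor of the mTORC1 pathway, fell by 1.09 ± 0.06 on the log2 scale. GDF15 and SESN2 are also members of the ATF4 list described next.

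The ATF4 list covers amino acid synthesis, transport, charging of tRNA and the stress regulators around them, and its share of all counts was 2.17% to 2.29% in the vehicle libraries and 0.71% to 0.727% in the combination libraries. All of its 48 tested members passed the test as lower and 40 of them fell at least 2-fold, with none higher and a median log2 fold change of -1.82. The 8 that did not reach 2-fold were ATF3, ATF5, EPRS, NARS, TARS, CBS, PYCR1 and ALDH18A1. ATF4 itself measured 389.5, 399 and 392 FPKM in vehicle and 173, 165 and 162 FPKM in the combination, a fall of 2.37-fold in FPKM (log2 difference -1.25 ± 0.05, adjusted p 8.58e-17).

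The biosynthetic members gave some of the largest changes. ASNS, asparagine synthetase (GRCh38 chromosome 7, 97851677 to 97928441), measured 167, 191 and 191 FPKM in vehicle and 23.7, 24.5 and 23.0 FPKM in the combination, a 7.72-fold lower level. PHGDH, the first enzyme of serine synthesis, measured 406, 426 and 433 FPKM in vehicle against 99.1, 92.8 and 92.3 FPKM. No combination library of either gene came near a vehicle library. PCK2, the mitochondrial phosphoenolpyruvate carboxykinase, fell furthest among abundant members, from 233, 248 and 255 FPKM to 12.4, 12.9 and 11.6 FPKM (log2 difference -4.32 ± 0.06, adjusted p 5.17e-25). PCK2 overlaps NRL in the annotation.

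Transporters fell as well. SLC7A11, the cystine importer, measured 66.5, 74.7 and 76.3 FPKM in vehicle and 4.09, 5.04 and 4.45 FPKM in the combination, a log2 difference of -4.01 ± 0.07 (adjusted p 5.92e-23). SLC1A5, a glutamine carrier, measured 134, 139 and 139 FPKM in vehicle and 19.7, 20.1 and 17.7 FPKM in the combination. Both gaps were many times the spread within a group. SLC7A5 and SLC3A2, the subunits of the large neutral amino acid exchanger, fell by 2.32 ± 0.05 and 2.09 ± 0.05 on the log2 scale. Among the stress effectors, DDIT4, an inhibitor of mTORC1, fell from 370.3 ± 18.7 to 95.5 ± 5.84 FPKM (SD, n = 3 each) and TRIB3, a pseudokinase that dampens ATF4 signalling, from 99.2 ± 1.97 to 12.7 ± 0.554 FPKM. CHAC1, which degrades glutathione, fell from 45.6 to 2.58 FPKM. FGF21, a secreted metabolic hormone, measured 3.72, 4.03 and 3.71 FPKM in vehicle and had no counts in any combination library, which at a floor of 3 counts per library is at least 20.5-fold lower.

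**Figure D2:**
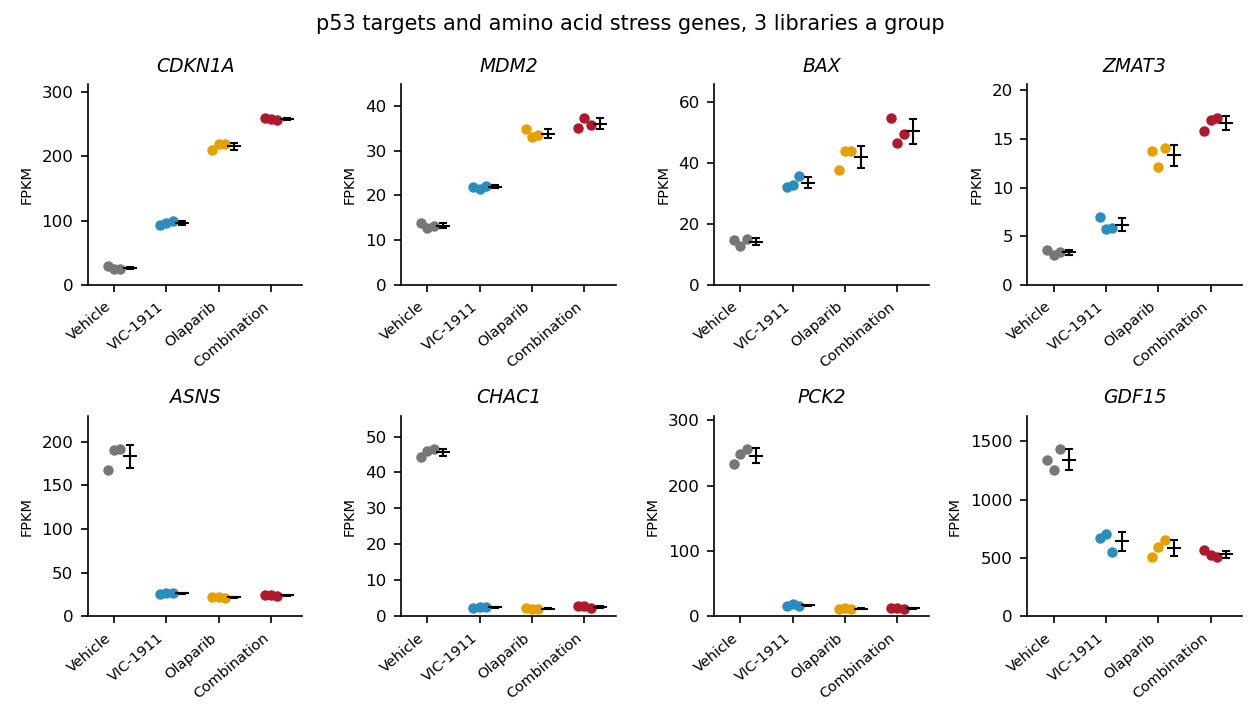
FPKM (y axes, each from 0) of CDKN1A, MDM2, BAX, ZMAT3, ASNS, CHAC1, PCK2 and GDF15 in vehicle, VIC-1911, olaparib and combination cells at 7 days, with one point per library and the mean ± SD of 3 libraries beside them. CDKN1A climbs from about 26 to 258 FPKM over the 4 groups, whereas ASNS, CHAC1 and PCK2 are low in all 3 drug groups.

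ATF4 binds composite elements with its C/EBP partners, and promoters were therefore searched for the core TGATGNAA on both strands in RefSeq windows that run from 250 bases before to 50 bases after each annotated start (GRCh38.p14). Of 10873 tested genes with a window, 2.68% held the core. It was in 10.7% of the 393 called lower and 3.39% of the 443 called higher, and in 13 of the 37 members of the ATF4 list with a window (35.1%). A match describes letters, not a bound site or a cause, and ATF3, NARS and TARS hold the core without a 2-fold change. Among the 30 members called lower with a window 10 held it (33.3%), close to the share of all tested members. PCK2 and TRIB3 fell strongly and have no match in their windows. The windows below were picked from genes that both fell and hold the core, which is in capitals. In CHAC1 (chr15:40953221-40953520, plus strand) the match starts 209 bases before the start, in ASNS (chr7:97872359-97872658, minus strand) 68 bases before it and in FGF21 (chr19:48755274-48755573, plus strand) 54 bases before it.
CHAC1: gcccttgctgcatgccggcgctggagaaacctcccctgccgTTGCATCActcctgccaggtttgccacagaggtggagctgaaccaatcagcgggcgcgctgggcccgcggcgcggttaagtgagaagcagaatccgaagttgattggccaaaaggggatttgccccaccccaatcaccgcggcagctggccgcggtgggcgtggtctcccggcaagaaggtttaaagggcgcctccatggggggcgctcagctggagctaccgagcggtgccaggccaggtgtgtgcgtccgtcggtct
ASNS: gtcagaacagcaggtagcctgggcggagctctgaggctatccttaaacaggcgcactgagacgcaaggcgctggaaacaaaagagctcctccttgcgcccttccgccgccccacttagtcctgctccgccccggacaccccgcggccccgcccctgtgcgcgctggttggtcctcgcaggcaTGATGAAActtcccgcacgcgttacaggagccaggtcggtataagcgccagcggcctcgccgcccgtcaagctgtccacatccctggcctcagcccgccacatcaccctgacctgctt
FGF21: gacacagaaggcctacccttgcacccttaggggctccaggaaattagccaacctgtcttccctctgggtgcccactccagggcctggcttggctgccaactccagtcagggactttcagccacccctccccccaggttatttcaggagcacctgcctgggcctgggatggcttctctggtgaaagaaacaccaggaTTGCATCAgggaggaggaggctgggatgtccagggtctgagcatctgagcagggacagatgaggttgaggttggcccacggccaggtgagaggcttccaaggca
In ASNS the core reads forwards and in CHAC1 and FGF21 as its reverse complement.

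Genes of the unfolded protein response were lower as well. Of 21 tested members of a list of endoplasmic reticulum folding genes, 20 passed the test as lower and none as higher, and 6 fell at least 2-fold, namely XBP1, ERN1, HERPUD1, DNAJB9, SEL1L and ATF6. XBP1, the transcription factor whose mRNA is spliced by the sensor ERN1, measured 328, 331 and 346 FPKM in vehicle and 79.2, 78.8 and 77.1 FPKM in the combination, a log2 difference of -2.10 ± 0.05 (adjusted p 6.33e-21). The groups did not overlap. HSPA5, the chaperone BiP, passed the test with a smaller difference of -0.64 ± 0.05. The median of the list was -0.76.

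Neither drug's target changed 2-fold at the transcript level against vehicle. AURKA (GRCh38 chromosome 20, 56369390 to 56392215) measured 8.01, 5.45 and 5.61 FPKM in vehicle and 7.33, 6.98 and 6.57 FPKM in the combination. The combination libraries lay inside the vehicle range, with a log2 difference of 0.12 ± 0.11 (adjusted p 0.405). VIC-1911 alone gave 23.5, 23.0 and 25.9 FPKM, and the combination fell by 1.75 ± 0.09 on the log2 scale against it (adjusted p 3.07e-15). PARP1 measured 59.9, 55.9 and 55.1 FPKM in vehicle and 70.1, 70.8 and 68.2 FPKM in the combination, which passed the test as higher at 0.29 ± 0.05 (adjusted p 2.5e-05) without reaching 2-fold.

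Mitotic genes as a list stood near vehicle in the combination. Of 53 tested members only CDK1 was called, 8 passed the test as higher and 14 as lower, and the median log2 fold change was -0.093. Vehicle replicate 1 held the most mitotic transcripts, the list taking 0.131% to 0.176% of counts in the 3 vehicle libraries and 0.145% to 0.158% in the combination. Without that library 18 members passed as higher and 7 as lower and the median was 0.075, so the direction of the list rested on 1 vehicle library. CDK1, the kinase of mitotic entry, measured 12.7, 9.20 and 11.4 FPKM in vehicle and 25.8, 26.5 and 24.9 FPKM in the combination (log2 difference 1.22 ± 0.08, adjusted p 4.07e-12). MKI67, the proliferation marker, was lower by 0.61 ± 0.10 on the log2 scale (adjusted p 9.78e-06), at 6.43, 5.62 and 4.94 FPKM in vehicle and 3.04, 4.42 and 3.89 FPKM in the combination. PLK1, a kinase of spindle assembly, and CCNB1, the cyclin partner of CDK1, had log2 differences of -0.27 (adjusted p 0.0656) and 0.06 (adjusted p 0.699).

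Against the single drugs the mitotic list was lower, in comparisons that share the combination libraries with each other. Against VIC-1911 alone all 53 members passed the test as lower and 49 of them fell at least 2-fold, with a median of -1.49. Over all 14409 genes of that fit, 321 (2.23%) rose and 262 (1.82%) fell against VIC-1911, and at any fold 20.7% passed as higher and 22.2% as lower. Against olaparib alone 51 of 53 passed as lower and none was 2-fold, with a median of -0.58. Over all genes 42 (0.291%) rose and 13 (0.0902%) fell against olaparib, and at any fold 4.55% passed as higher and 6.95% as lower. PLK1 gives the pattern in full. It measured 19.3, 12.7 and 10.9 FPKM in vehicle, 46.5, 51.5 and 53.7 FPKM under VIC-1911, 16.1, 20.4 and 16.4 FPKM under olaparib and 11.9, 12.9 and 11.8 FPKM in the combination. The VIC-1911 libraries were the high ones, and the combination libraries lay below every library of both single drugs and within the vehicle range. The share of counts taken by the list was 0.391% to 0.402% under VIC-1911 and 0.209% to 0.235% under olaparib. The number of cells in each phase of the cycle was not measured, and fewer cycling cells cannot be told apart from less mRNA per cell.

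**Figure D3:**
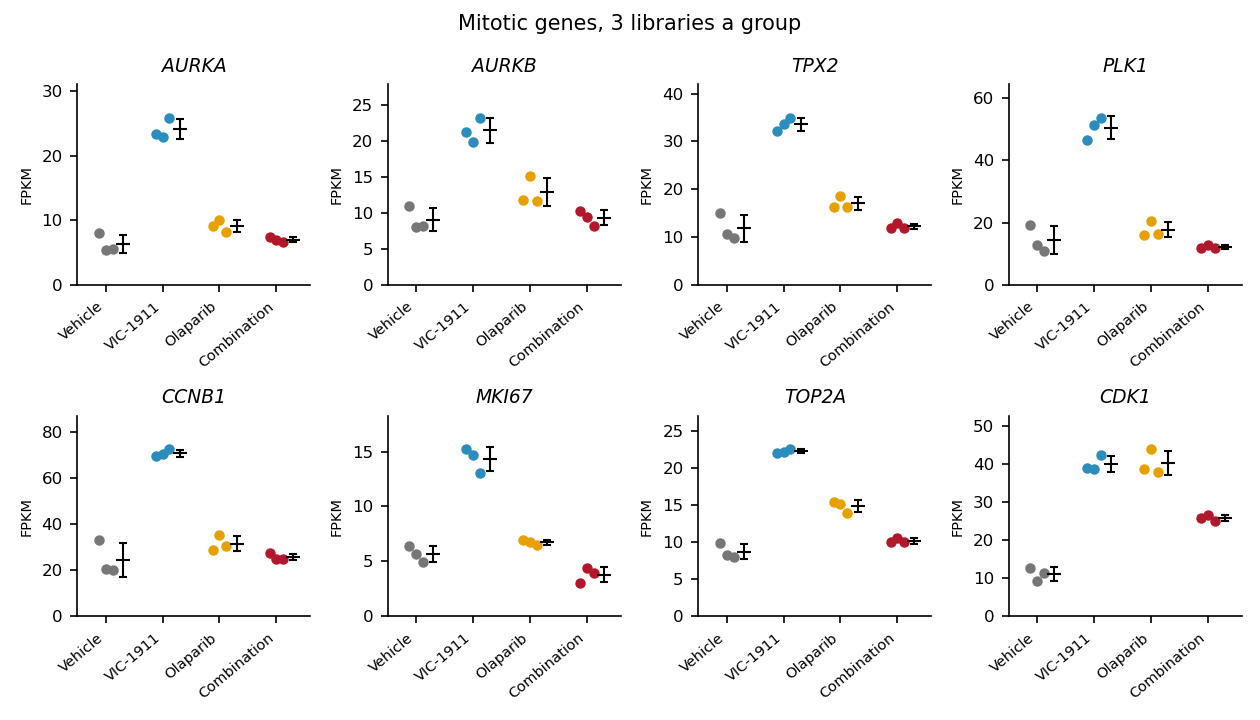
FPKM (y axes, each from 0) of AURKA, AURKB, TPX2, PLK1, CCNB1, MKI67, TOP2A and CDK1 in the 4 groups at 7 days, with one point per library and the mean ± SD of 3 libraries beside them. VIC-1911 libraries are highest for each gene other than CDK1, where olaparib is as high, and the combination lies within or near the vehicle range apart from CDK1, which is higher, and MKI67, which is lower.

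DNA replication genes gave small differences, mostly higher. None of 46 tested members of a replication and E2F target list was called, 23 passed the test as higher and 2 as lower, and the median was 0.214. MCM2, a helicase subunit, had a log2 difference of 0.40 and RRM2, a ribonucleotide reductase subunit, 0.14. Against VIC-1911 all 46 passed as lower (median -0.68) and against olaparib 42 did (median -0.42). In a list of homologous recombination and Fanconi genes, 14 of 46 passed as higher and 7 as lower against vehicle, beside 27.6% and 27.2% of all genes. None of them passed as higher against either single drug, while 29 passed as lower against VIC-1911 (median -0.42) and 23 against olaparib (median -0.33). MUS81, a structure-selective endonuclease, fell from 24.6, 25.1 and 28.01 FPKM to 11.4, 12.3 and 12.2 FPKM (log2 difference -1.11 ± 0.07, adjusted p 1.64e-12). MUS81 overlaps EFEMP2. RAD51B was also called lower and the polymerase POLQ higher, at a difference of 1.00 ± 0.10 that lies on the 2-fold limit. BRCA1 had a log2 difference of -0.25.

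Clustered histone genes were called higher in 13 of 31 tested cases and lower in none, with a median of 0.972. The H2B gene HIST2H2BE measured 29.2, 33.3 and 35.7 FPKM in vehicle and 91.8, 95.9 and 92.7 FPKM in the combination, a log2 difference of 1.52 ± 0.06 (adjusted p 4.96e-16). HIST1H4H, which encodes H4, went from 13.8, 16.7 and 17.6 FPKM to 41.9, 39.9 and 46.5 FPKM. Neither pair of groups overlapped. The labels give poly(A) RNA as the material, whereas replication-dependent histone mRNAs mostly lack poly(A) tails and have near-identical copies, so single members are uncertain. Other RNAs without poly(A) tails took 0.0176% to 0.0278% of counts in vehicle and 0.0158% to 0.0193% in the combination. Of 6 tested, none was called, 3 passed as higher and 2 as lower, with a median of 0.734, and 3 were called higher without vehicle replicate 3. Their part in the histone result was not tested.

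Androgen response genes went in both directions. Of 29 tested, 6 rose and 4 fell, and 11 and 15 passed at any fold. KLK3, prostate-specific antigen, measured 2668, 2697 and 2678 FPKM in vehicle and 1728, 1599 and 1684 FPKM in the combination, lower by 0.68 ± 0.04 on the log2 scale (adjusted p 3.33e-12) without reaching 2-fold. FOLH1, prostate-specific membrane antigen, fell from 396 ± 17.2 to 174 ± 13.8 FPKM (SD, n = 3 each). FKBP5, a co-chaperone of steroid receptors that androgen induces, rose from 16.7 ± 0.383 to 35.1 ± 3.17 FPKM, and NDRG1, a differentiation- and hypoxia-associated gene, from 39.2 ± 2.22 to 106 ± 7.95 FPKM. The transcription factor MAF rose by 2.77 ± 0.08 on the log2 scale. Among the UGT2B glucuronosyltransferases, UGT2B11 rose and UGT2B17 fell, but these genes are close paralogs and their reads are uncertain.

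Interferon-stimulated genes were called higher in 9 of 28 tested cases and lower in none, with 14 and 1 passing at any fold and a median of 0.40. Over all tested genes 4.23% were called higher and 3.77% lower. Most of those called in the list were near silent in vehicle. Such a gene could be tested only if the combination held enough counts, so these calls were in part selected by the filter, and 28 of the 41 listed genes were tested. IFIT2, an inhibitor of translation of foreign RNA, measured 0.105, 0.101 and 0.0973 FPKM in vehicle and 1.24, 0.870 and 1.47 FPKM in the combination (log2 difference 3.55 ± 0.30, adjusted p 5.02e-10). ISG15, a ubiquitin-like modifier, was the abundant one, at 30.2, 29.0 and 29.4 FPKM in vehicle and 69.2, 53 and 64.2 FPKM in the combination (log2 difference 1.08 ± 0.09, adjusted p 1.74e-10). In both genes combination replicate 2 was the lowest of its group and still above vehicle. In IFI6, an interferon-induced mitochondrial protein, that library was level with vehicle and with olaparib alone. IFI6 measured 18.0, 7.30 and 19.2 FPKM against 8.57, 7.28 and 9.75 FPKM, and its log2 difference of 0.87 ± 0.21 did not reach 2-fold with all libraries and was 1.15 without that one. Leukocyte markers, listed above, were near 0 in these cultures. In the MHC class I list, 1 of 13 rose, PSMB8 at a level near 0, and 4 passed as higher and 3 as lower at any fold.

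The interferon-stimulated response element lies in promoters of many interferon-induced genes, and its core was searched as GAAANNGAAA on both strands in the same promoter windows. It was in 3.68% of the tested genes with a window, in 7.9% of those called higher and 2.8% of those called lower, and in 14 of 21 members of the interferon list with a window (66.7%). Of the 6 members called higher with a window 4 held it, the same share. IFIT3 (chr10:89327747-89328046, plus strand) and ISG15 (chr1:1013247-1013546, plus strand) are shown because each rose and holds a pair of matches, in capitals, which overlap each other in ISG15.
IFIT3: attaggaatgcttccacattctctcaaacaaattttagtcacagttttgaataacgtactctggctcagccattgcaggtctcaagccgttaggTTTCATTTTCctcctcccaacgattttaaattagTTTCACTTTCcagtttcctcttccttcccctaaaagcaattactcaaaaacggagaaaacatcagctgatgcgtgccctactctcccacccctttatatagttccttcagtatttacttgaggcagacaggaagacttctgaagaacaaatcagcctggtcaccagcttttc
ISG15: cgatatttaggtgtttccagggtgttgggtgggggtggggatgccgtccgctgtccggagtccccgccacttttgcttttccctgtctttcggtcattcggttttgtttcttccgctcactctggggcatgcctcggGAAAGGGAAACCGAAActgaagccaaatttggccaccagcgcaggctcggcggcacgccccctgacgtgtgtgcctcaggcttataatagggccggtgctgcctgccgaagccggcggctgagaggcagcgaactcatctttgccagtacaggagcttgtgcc
As with the ATF4 core, a match is a description of letters and not a site.

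**Figure D4:**
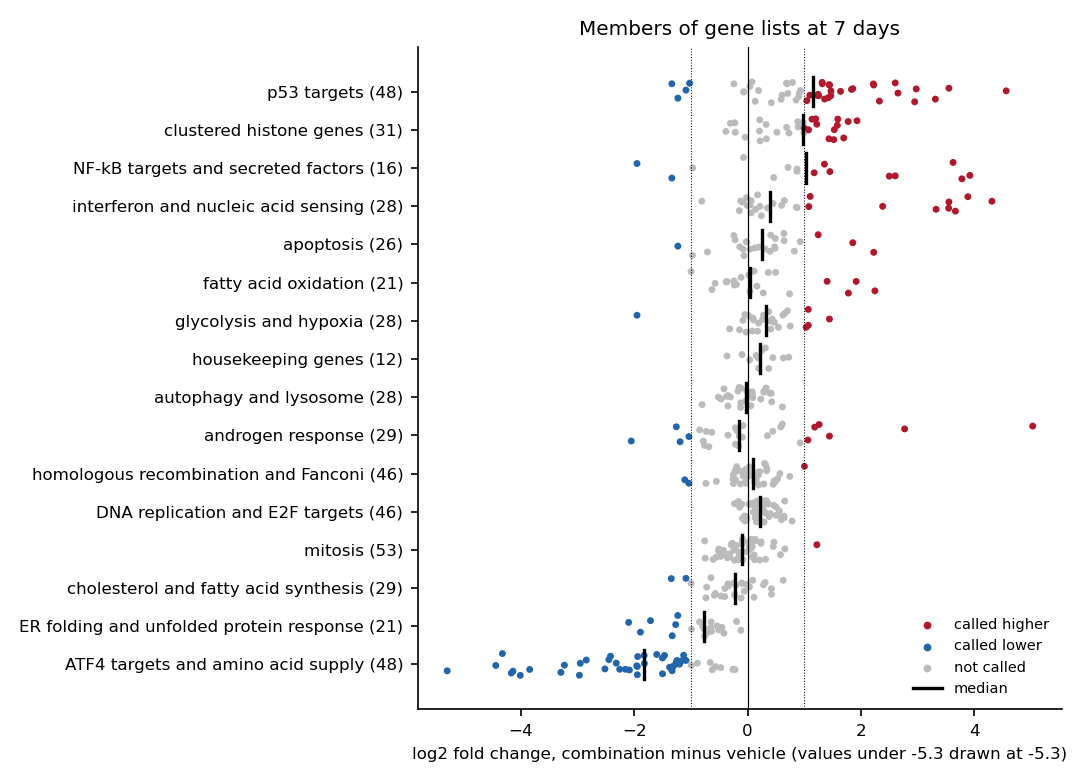
Log2 fold change, combination minus vehicle (x axis), of each tested member of 16 gene lists (y axis, number tested in brackets), coloured by call, with the list median as a bar and dotted lines at a 2-fold change. The ATF4 list lies wholly below 0, the endoplasmic reticulum list just below it, the p53 and histone lists mostly above it, and the mitosis list around 0.

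Cytokines, matrix factors and NF-kB targets formed a list of 29 genes, of which 16 were tested. Of these 8 rose (50%) and 2 fell (12.5%), beside 4.23% and 3.77% of all tested genes. IGFBP3, a secreted binder of insulin-like growth factors (GRCh38 chromosome 7, 45912245 to 45921272), rose by 3.63 ± 0.10 on the log2 scale (adjusted p 1.83e-19) and is described below. LIF, a cytokine of the IL-6 family that is also a p53 target, measured 0.922, 0.844 and 0.828 FPKM in vehicle and 5.38, 5.36 and 5.18 FPKM in the combination. TGFB2, a TGF-beta ligand, rose from 0.0593 ± 0.0519 to 1.12 ± 0.114 FPKM (SD, n = 3 each). A gene near silent in vehicle, such as TGFB2, could be tested only if the combination held enough counts. Calls of such genes were in part selected by the filter. The NF-kB subunits NFKB2 and RELB rose by 1.17 ± 0.07 and 2.50 ± 0.34 on the log2 scale. The list is not uniform, and the 2 that fell were GDF15, described above, and VEGFA. The summed level of the list was 1400 to 1600 FPKM in vehicle and 649 to 706 FPKM in the combination. VEGFA, the endothelial growth factor, measured 94.2, 99.0 and 119 FPKM in vehicle and 27.3, 26.6 and 26.7 FPKM in the combination, a log2 difference of -1.95 ± 0.07 (adjusted p 1.36e-17). VEGFA was also the 1 member of a glycolysis and hypoxia list of 28 that fell, beside 4 that rose (NDRG1, PFKFB3, EGLN3 and CA12) and 18 that passed as higher at any fold.

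Lipid genes gave few calls. In cholesterol and fatty acid synthesis 2 of 29 fell, SCD and SREBF2, none rose, and 16 passed as lower against 5 as higher. SCD, the stearoyl-CoA desaturase, measured 313, 240.4 and 290.2 FPKM in vehicle and 113, 109.7 and 109.5 FPKM in the combination, a log2 difference of -1.35 ± 0.06 (adjusted p 8.62e-15). SREBF2, the transcription factor of cholesterol synthesis, fell by 1.09 ± 0.05. Of 21 fatty acid oxidation genes, 4 rose (ACADL, ACOX2, ACSM1 and ACSL4, 19%, beside 4.23% of all tested genes) and none fell 2-fold. That list went in both directions at any fold, with 9 members passing as higher and 7 as lower and a median of 0.041. The autophagy and lysosome list of 28 had no call in either direction by edgeR, with 8 members passing as higher and 10 as lower at any fold, and 12 housekeeping genes had none either, with 9 and 1.

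Outside these lists the largest rises among genes that reached 1 FPKM included ID1 and SULF2. SULF2, an extracellular heparan sulfate sulfatase, measured 0.106, 0.198 and 0.178 FPKM in vehicle and 3.12, 3.90 and 3.48 FPKM in the combination (log2 difference 4.43 ± 0.19). APOBEC3C, a cytidine deaminase, had 1 count over the vehicle libraries and 70 over the combination libraries, a ratio of 63.0 with a 95% exact interval for counting error of 10.9 to 2525. Among abundant genes THBS1, a matricellular protein, rose from 10.4, 7.82 and 8.70 FPKM to 52.1, 60.6 and 57.3 FPKM. MICAL1, an actin oxidoreductase, rose from 40.2, 38.8 and 37.9 FPKM to 156, 144 and 158 FPKM. The groups were separate in both. The largest fall of an abundant gene was that of S100P, a calcium-binding protein of epithelial cancers, which measured 153, 171 and 178 FPKM in vehicle and 7.66, 8.68 and 8.18 FPKM in the combination (log2 difference -4.36 ± 0.09, adjusted p 1.37e-21). The trypsinogen genes PRSS1, PRSS2 and PRSS3 fell together, but they are near-identical in sequence and their reads may be shared. PRSS2 had no counts in the combination, at least 13.2-fold lower at the same floor.

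The design also asks where the combination went beyond either drug. Against olaparib alone, the 42 rises and 13 falls given above come from edgeR in a fit of all 12 libraries, while DESeq2 called 10 and 4. Leaving out olaparib replicate 3 lowered the count of rises to 25. In the ATF4 list no member was called against olaparib, 6 passed as higher and 3 as lower, and the median was 0.02. In the p53 list none of 49 was called, 11 passed as higher and 2 as lower, and the median was 0.11. Against VIC-1911 alone 13 of 49 p53 genes rose and none fell, and no ATF4 gene was called, with 19 passing as lower and 11 as higher. CDKN1A, FAS and BBC3 were among those 13.

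The genes called against vehicle, olaparib and VIC-1911 alike numbered 27 higher and 5 lower. DESeq2 made the same call against both single drugs for 6 of the 27 and 2 of the 5, and gave no adjusted p against olaparib for the other 21 and 3, which had low counts. IGFBP3 had the clearest values, at 2.11, 2.08 and 2.97 FPKM in vehicle, 2.07, 1.58 and 1.96 FPKM under VIC-1911, 9.11, 8.17 and 5.65 FPKM under olaparib and 26.3, 27.2 and 30.5 FPKM in the combination. VIC-1911 libraries were no higher than vehicle, and the combination libraries lay above all others. The log2 difference from olaparib was 1.96 ± 0.10 (adjusted p 9.42e-14) and that from VIC-1911 3.95 ± 0.13 (adjusted p 8.71e-20).

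ID1 (GRCh38 chromosome 20, 31605289 to 31606510) encodes an inhibitor of basic helix-loop-helix factors that BMP signalling induces. It measured 1.19, 0.751 and 1.93 FPKM in vehicle, 4.23, 2.73 and 7.07 FPKM under VIC-1911, 16.5, 14.8 and 11.3 FPKM under olaparib and 35.1, 31.0 and 36.9 FPKM in the combination. The groups did not overlap, and the combination exceeded olaparib by 1.35 ± 0.14 on the log2 scale (adjusted p 9.4e-08). The other members of the family were looked up after the values of ID1 had been seen. ID2, ID3 and ID4 rose against vehicle by 2.67 ± 0.14, 3.92 ± 0.13 and 3.62 ± 0.25 on the log2 scale, and ID3 did not reach 2-fold against olaparib (0.83). ID4 had 7, 10 and 4 counts in the vehicle libraries and 124, 73 and 106 in the combination libraries. It passed the filter through the combination, so its call against vehicle was in part selected. UGT2B11, a UGT2B glucuronosyltransferase, gave 0.184, 0.0774 and 0.199 FPKM in vehicle and 4.85, 5.34 and 3.91 FPKM in the combination, with the reservation on paralogs above.

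The interferon list was the one with most calls against olaparib, 5 of 30 (IFI6, OAS1, IFIT2, OASL and IFIT3), beside 0.291% of all genes. Of these, OASL and IFI6 did not reach 2-fold against VIC-1911. Against VIC-1911 the list had 5 members called higher and 1 lower, with 16 and 3 passing at any fold. OAS3 went the other way, at 3.43 to 3.64 FPKM under VIC-1911 and 1.54 to 1.76 FPKM in the combination. DESeq2 called 3 of the 5 against olaparib (IFI6, IFIT2 and OASL) and gave no adjusted p for OAS1 and IFIT3. IFI6 overlapped, at 6.93 to 7.81 FPKM under olaparib and 7.30 to 19.2 FPKM in the combination. OASL, an oligoadenylate synthetase-like antiviral protein, measured 0.201, 0.0845 and 0.109 FPKM in vehicle and 1.77, 1.14 and 2.17 FPKM in the combination. Among the genes that fell, SLC22A3, an organic cation transporter, measured 2.42, 1.85 and 1.57 FPKM in vehicle, 4.0, 3.50 and 4.28 FPKM under VIC-1911, 1.70, 2.62 and 1.82 FPKM under olaparib and 0.402, 1.06 and 0.496 FPKM in the combination. Every combination library was below every other library, with log2 differences of -1.77 ± 0.23 from olaparib and -2.64 ± 0.21 from VIC-1911. ZP1, a zona pellucida glycoprotein gene, fell from 1.34 ± 0.421 to 0.149 ± 0.0406 FPKM (SD, n = 3 each).

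**Figure D5:**
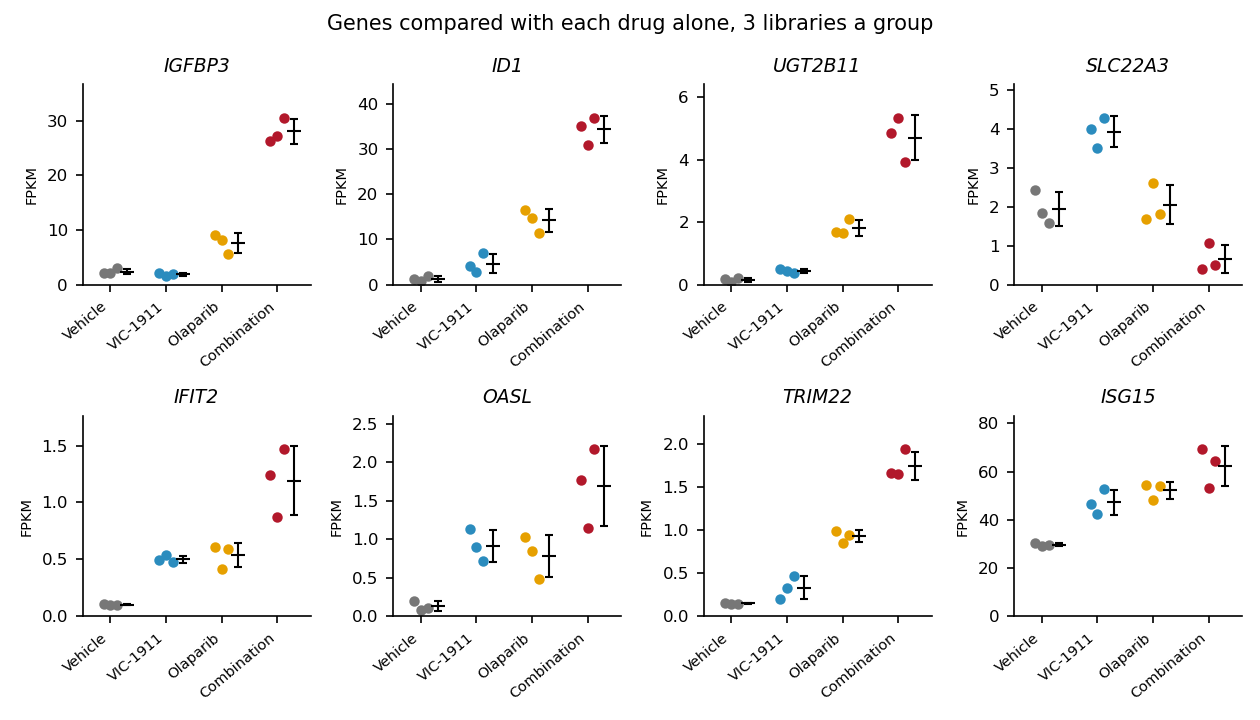
FPKM (y axes, each from 0) of IGFBP3, ID1, UGT2B11, SLC22A3, IFIT2, OASL, TRIM22 and ISG15 in the 4 groups at 7 days, with one point per library and the mean ± SD of 3 libraries beside them. IGFBP3 in the combination sits near 28 FPKM, above the 5.65 to 9.11 FPKM of olaparib, SLC22A3 is lowest in the combination, and ISG15 overlaps between olaparib and the combination.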

How the data were processed

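Poly(A) RNA of C4-2B cells was sequenced, and the authors deposited a table of read counts per gene and a table of FPKM values for the 12 libraries of 7 days. Per the study's methods, reads were trimmed with Trimmomatic and mapped with STAR, and FPKM came from an in-house script. The submitters' processing notes name STAR 2.6.0 and the human build hg38. The kit's strand setting and the counting options are not given in the sources used here. The deposited FPKM values equal counts over 1 length per gene and the library size, within 0.046 relative deviation over 13839 genes, and served to show levels. The 2-day tables were not used here. Gene names that a spreadsheet had turned into dates (28) were not named, and 609 of 630 list symbols were in the table, 3 of them by a synonym.

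Counts as deposited were tested with edgeR 4.0.16 (R 4.3.3, TMM scaling, glmQLFit and glmQLFTest, Benjamini-Hochberg adjustment), the 6 libraries alone against vehicle and all 12 in 1 fit against each single drug. Total counts of 4967931 to 19684208 per library set the precision, and SE is the log2 fold change over the square root of F. The script was tested on simulated data. DESeq2 1.42.0, limma 3.58.1 on log2 of FPKM plus a pseudocount, glmTreat, other scalings and filters, thinned counts, a replicate block and each library left out were tried as alternatives.

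Genes were named by a rule: the drug targets, the largest changes at a mean of at least 1 and of at least 50 FPKM without overlap of groups, fixed anchors and called members of the lists, and genes called against all 3 other groups. Further members of the lists are given as examples, chosen after their values were seen. The comparison, the members and the lists were chosen with earlier results of these data known, so no list is tested as a set. Of 119 named genes, 59 overlap another gene in the RefSeq annotation of GRCh38.p14, from which positions and promoters were taken. Some genes of the lists are not reported here.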

Additional observations from a re-analysis of the deposited data

How the results depend on the processing

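Against vehicle, the counts of 594 higher and 529 lower genes were 272 and 258 when edgeR tested for a change over 2-fold directly (glmTreat) and 182 and 233 with limma on log2(FPKM + 1), where a pseudocount of 1 shrinks low genes by construction. With a mean of at least 1 FPKM required, 11975 genes were tested, of which 324 were higher and 389 lower. That filter removes genes of low level, among which higher calls were most frequent. Against olaparib, DESeq2 called 10 higher and 4 lower and glmTreat 1 and 0, with 18 and 6 at an unadjusted p under 0.05. Against VIC-1911, glmTreat called 75 higher and 78 lower. Leaving out 1 library at a time gave 557 to 610 higher and 524 to 578 lower against vehicle, 25 to 38 and 9 to 16 against olaparib, and 296 to 347 and 257 to 285 against VIC-1911.

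Same-numbered libraries of vehicle and the combination did not deviate together (correlations of 0.0887, 0.0368 and -0.00176). With 3 libraries a group this cannot exclude a shared culture or day, and the labels name none. With the replicate number as a block, 587 genes were higher and 538 lower against vehicle, 45 and 13 against olaparib, and 334 and 267 against VIC-1911. No called gene among those named changed direction under any alternative run, while the median of the mitosis list went from -0.093 to 0.075 without vehicle replicate 1. Of the recomputed values of named genes, 1949 kept their side of the threshold, 63 lost the call and 6 gained it, with POLQ, HIST1H2BK, RAD51B and COL3A1 losing it most often, and the cause was not tested. Without scaling beyond library size, 56.7% of called genes were higher, against 52.9%, and the median of all genes was 0.0542. Vehicle replicate 3, with 6911220 counts, limits what could be detected among genes of low level.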

Other observations

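The genes described here were looked up after their values had been seen and carry no test of their own as a group. Genes known from the cleavage-stage embryo had some counts in the combination and under olaparib alone, and few in vehicle. PRAMEF12 had 3, 4 and 2 counts in the vehicle libraries and 54, 47 and 46 in the combination libraries, TRIM49 had 3, 4 and 0 against 24, 17 and 30, and ZSCAN4 had 2, 1 and 2 against 14, 16 and 11. They could be tested against vehicle only because the combination libraries reached 10 counts, so that they were called higher was in large part fixed by the filter. These genes have near-identical copies, and reads may be split or shared among them. Under olaparib alone PRAMEF12 had 9, 25 and 30 counts, TRIM49 had 3, 11 and 18, and ZSCAN4 had 2, 13 and 9. Among 8 such genes looked up, 3 were called higher against olaparib and 8 against VIC-1911, beside 0.291% and 2.23% of all genes. No VIC-1911 library reached 10 counts for any of them, so the calls against VIC-1911 were likewise in large part fixed by the filter. For the 3 called against olaparib DESeq2 gave no adjusted p in that comparison.

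Genes of epithelial attachment to the basement membrane moved unequally. LAMB3 and COL17A1 were called higher against all 3 other groups, COL17A1 from 2 counts over the vehicle libraries to 70 over the combination libraries. LAMB3 had 3, 5 and 3 counts in the vehicle libraries and 40, 24 and 37 in the combination libraries. Both genes reached 10 counts in the combination and not in vehicle, so their calls against vehicle were in large part fixed by the filter. Neither had 10 counts in 3 libraries outside the combination, so their calls against the single drugs were in part selected too. LAMA3 had a log2 difference of -0.11 (adjusted p 0.17 by edgeR), and the integrin ITGA6 fell by 1.39 ± 0.07. The basal keratin KRT5 was listed at 0, whereas KRT14 measured 1.57, 1.40 and 1.59 FPKM in vehicle and 2.89, 2.51 and 2.43 FPKM in the combination. KRT14 passed the test as higher with a log2 difference of 0.80, under 2-fold.

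CYP4F8, which encodes a fatty acid and eicosanoid hydroxylase, rose against vehicle and was not called against either single drug. It measured 37.3, 25.4 and 22.2 FPKM in vehicle and 98.0, 103 and 105 FPKM in the combination. SMAD6 and SMAD7, inhibitors of BMP and TGF-beta signalling, rose by 1.21 ± 0.09 and 1.29 ± 0.12 on the log2 scale.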
